A study of Mus musculus with 4 samples.

Results

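The organic ion transporters of the SLC22 and SLCO families were described across kidney cell classes in a mouse single-cell RNA-seq series. Members were the genes whose symbol begins with Slc22a or Slco followed by a digit and that had at least 20 unique molecular identifiers (UMIs) over the 4 libraries. Of 39 such symbols among the 31053 annotated features, 33 qualified: 23 Slc22a and 10 Slco genes. The other 6 symbols (Slc22a16, Slc22a20, Slco1a5, Slco1c1, Slco6c1 and Slco6d1) fell below that minimum. All kidneys came from 10-week-old C57BL/6J mice of both sexes, wild type as far as the labels say. Fibroblast growth factor 23 (FGF23), a bone-derived hormone that lowers phosphate reabsorption, was given as 10 µg of recombinant human protein in a single intraperitoneal injection, and kidneys were taken 1, 4 or 12 h later. The 0 h library carries a dose of 0 µg, and the labels do not settle whether its mice received a vehicle injection. Each time point is 1 library made from paired male and female kidneys, so a difference between times compares 2 libraries and has no replicate check.

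The SLC22 family holds the organic anion transporters (OATs), the organic cation transporters (OCTs), the carnitine and zwitterion transporters (OCTNs) and the urate exchanger URAT1. The SLCO family encodes the OATPs, which carry bile acids, steroid conjugates, thyroid hormones and prostaglandins. In the proximal tubule, basolateral uptake carriers such as OAT1 and OAT3 take organic anions from blood in exchange for dicarboxylates, and apical carriers and ATP-driven pumps pass them into the lumen or reclaim urate. Several of these genes are known to differ between male and female rodent kidneys.

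The promoters of Slc22a28 and Slc22a30 are shown because these neighbours on chromosome 19 have near-identical upstream sequence and shared the direction of their sex difference, while Slc22a29, which lies between them, went the other way. Each is the RefSeq sequence upstream of the transcription start (GRCm38.p6), 5′ to 3′ on the gene's own strand. Capitals mark the bases that differ between the genes in a global alignment or have no partner in it. The 6 bases nearest the Slc22a30 start were left out because they lie inside an annotated exon.
Slc22a28, chr19:8131983-8132232, minus strand: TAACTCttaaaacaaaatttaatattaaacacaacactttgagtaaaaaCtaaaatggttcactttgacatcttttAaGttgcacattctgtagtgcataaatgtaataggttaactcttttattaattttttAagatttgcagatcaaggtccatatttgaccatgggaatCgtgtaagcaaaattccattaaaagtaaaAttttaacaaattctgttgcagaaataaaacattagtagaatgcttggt
Slc22a30, chr19:8405112-8405355, minus strand: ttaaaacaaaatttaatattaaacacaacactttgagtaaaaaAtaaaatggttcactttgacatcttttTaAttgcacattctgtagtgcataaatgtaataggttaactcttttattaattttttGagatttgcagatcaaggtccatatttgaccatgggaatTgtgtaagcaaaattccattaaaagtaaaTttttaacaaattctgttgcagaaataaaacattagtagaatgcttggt
The Slc22a28 and Slc22a30 promoters matched at 238 of 244 aligned bases (97.5%). Over the full 250-base windows their identity was 93.0%, against 65.1% for Slc22a28 with Slc22a29 and 65.2% for Slc22a29 with Slc22a30.

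The genes lie in tandem groups (coordinates in GRCm38). On chromosome 19, Slc22a19 (7673061-7711310), Slc22a26 (7781041-7802667), Slc22a27 (7864388-7966027), Slc22a28 (8062209-8131982), Slc22a29 (8160165-8218900) and Slc22a30 (8335371-8405111) lie in this order on the minus strand, ahead of Slc22a8 (8591254-8611835) and Slc22a6 (8618039-8628299) on the plus strand. Slco1a4 (141805440-141856199), Slco1a1 (141907282-141946962) and Slco1a6 (142085761-142208521) lie near each other on the minus strand of chromosome 6. Near-identical copies can share reads: of the 91-base windows in the last 500 bases of annotated transcripts, 27.6% of those of Slc22a28 also occur in Slc22a30, 6.59% of those of Slc22a29 occur in Slc22a27, and 66.1% of those of Slc22a5 and of Slc22a21 occur in each other. Their separate levels are uncertain to that extent. Slc22a12 and Slc22a3 overlap exons of Nrxn2 and Plg on the opposite strand, and the sources used here do not state whether counting used strand.

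The 4 libraries held 12245 to 13813 barcodes and 139675666 to 158838728 UMIs. After filtering, 8758 to 10131 cells remained per library, with a median of 8861 to 11156 UMIs per cell, and any 2 libraries shared 36 to 57 barcodes. Clusters were built without any member gene and named from marker lists, and 6227 to 7276 cells per library were proximal tubule-like (PT-like). These comprised PT-S1-like cells (2219 to 2751), PT-S3-like cells (147 to 313) and a middle group (3623 to 4242), called intermediate proximal cells here because it joins S2-like clusters with clusters whose segment could not be named. PT markers were present in each of the 3. In counts scaled to a common library total (CPM), markers of macrophages summed to 4.50 to 7.85 in PT-like cells, those of neutrophils to 12.2, 7.80, 2.27 and 1.39 at 0, 1, 4 and 12 h, and those of podocytes to at most 0.211. Markers of other tubule segments were higher, with TAL lists summing to 368 to 401 CPM and connecting-tubule lists to 66.2 to 99.9 CPM in PT-like cells, and thin-limb lists to 579 to 904 CPM in PT-S3-like cells. Clusters led by the stress genes Fosb, Cyr61 and Jun made up 16.5%, 18.9%, 9.59% and 4.55% of PT-like cells at 0, 1, 4 and 12 h.

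Each UMI counts 1 transcript from its 3′ end, so CPM values are not divided by gene length. Levels set side by side between genes keep the limit of shared 3′ windows given above. Levels by segment are a description, with no test. Of the 33 members, 10 were highest in intermediate proximal cells, 9 in PT-S3-like cells, 2 in PT-S1-like cells and 12 in another class, taking only classes with at least 5 UMIs of the gene. These levels pool the sexes, and female-called cells were 46.7% to 53.7% of sex-called PT-S1-like cells, 22.2% to 28.7% of intermediate cells and 31.0% to 56.9% of PT-S3-like cells. Together the members summed to 1661 to 1829 CPM in PT-S1-like, 3988 to 4424 CPM in intermediate and 3780 to 4375 CPM in PT-S3-like cells over the 4 libraries.

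Among the anion carriers, Slc22a6 was the most abundant member, at 785, 818, 1026 and 967 CPM in intermediate cells at 0, 1, 4 and 12 h. Its level in PT-S1-like cells was 111 to 137 CPM and in PT-S3-like cells 35.8 to 165 CPM, so the ranges of the intermediate cells and the other segments did not overlap. Slc22a8 differed from its neighbour: it stood at 348, 343, 373 and 460 CPM in PT-S1-like cells and at 279, 360, 402 and 549 CPM in intermediate cells, ranges that overlapped, and at only 9.29 to 48.5 CPM in PT-S3-like cells. Slc22a12, which encodes URAT1, was measured at 644, 630, 658 and 611 CPM in intermediate cells, 475 to 509 CPM in PT-S3-like and 193 to 261 CPM in PT-S1-like cells. Slc22a22, the prostaglandin-specific carrier OAT-PG, was lower, at 63.3, 56.6, 50.9 and 44.3 CPM in intermediate cells.

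The PT-S3-like set was led by Slc22a7, which encodes OAT2, at 791, 813, 969 and 724 CPM, against 32.1 to 77.2 CPM in intermediate and 0.644 to 1.10 CPM in PT-S1-like cells. Slc22a19, an apical anion carrier, read 352, 376, 459 and 442 CPM there and 6.04 to 11.0 CPM in intermediate cells. Slc22a13 (OAT10, a nicotinate and urate carrier) gave 254, 272, 329 and 319 CPM in PT-S3-like and 6.24 to 12.3 CPM in intermediate cells. For all 3, every PT-S3-like value lay above every value in the other proximal segments. Slc22a26 followed at 35.7 to 46.5 CPM, and Slc22a27 and Slc22a14 reached at most 5.45 and 2.07 CPM.

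Cation carriers reached more than 1 segment. Slc22a2 (OCT2) rested at 258, 248, 333 and 243 CPM in PT-S3-like cells, overlapping the 202 to 274 CPM of intermediate cells and above the 43.9 to 56.6 CPM of PT-S1-like cells. The carnitine carrier Slc22a5 lay between 21.3 and 26.9 CPM in both PT-S1-like and intermediate cells. Slc22a18, an imprinted orphan carrier, read 414, 377, 422 and 378 CPM in intermediate cells and 367 to 428 CPM in PT-S3-like cells. The orphan genes of the chromosome 19 run differed in place: Slc22a30 (340.1, 303, 239.5 and 189 CPM) and Slc22a28 (136, 114, 115 and 73.6 CPM) were highest in intermediate cells, and Slc22a29 (40.8, 30.6, 24.7 and 26.2 CPM) in PT-S1-like cells. Among female-called cells alone these orders turned. Slc22a29 averaged 70.0 CPM in intermediate and 58.4 CPM in PT-S1-like cells. Slc22a30 averaged 50.9 CPM in PT-S3-like and 21.5 CPM in intermediate cells, and Slc22a28 averaged 37.9 CPM in PT-S1-like and 31.3 CPM in intermediate cells.

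Of the OATP genes, Slco1a1, an apical carrier of steroid conjugates, was highest in intermediate cells, at 469, 383, 330 and 148 CPM, against 38.1 to 107 CPM in PT-S3-like and 0.968 to 3.87 CPM in PT-S1-like cells. Slco1a6 was higher in PT-S3-like cells, at 220.1, 276, 279 and 335 CPM, than in intermediate cells, at 144 to 196 CPM, with the sexes pooled. In male-called cells the order was the reverse, with means of 44.6 CPM in PT-S3-like and 218 CPM in intermediate cells, and the female share of sex-called PT-S3-like cells was 31.0%, 47.3%, 35.8% and 56.9% at the 4 times. Slco3a1 was measured at 135, 130, 125 and 112 CPM in intermediate cells. Slco4c1, which encodes a carrier of digoxin and thyroid hormones, was read in PT-S3-like cells at 76.3, 53.6, 36.1 and 33.5 CPM and at no more than 0.447 CPM in the other proximal segments.

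**Figure D1:**
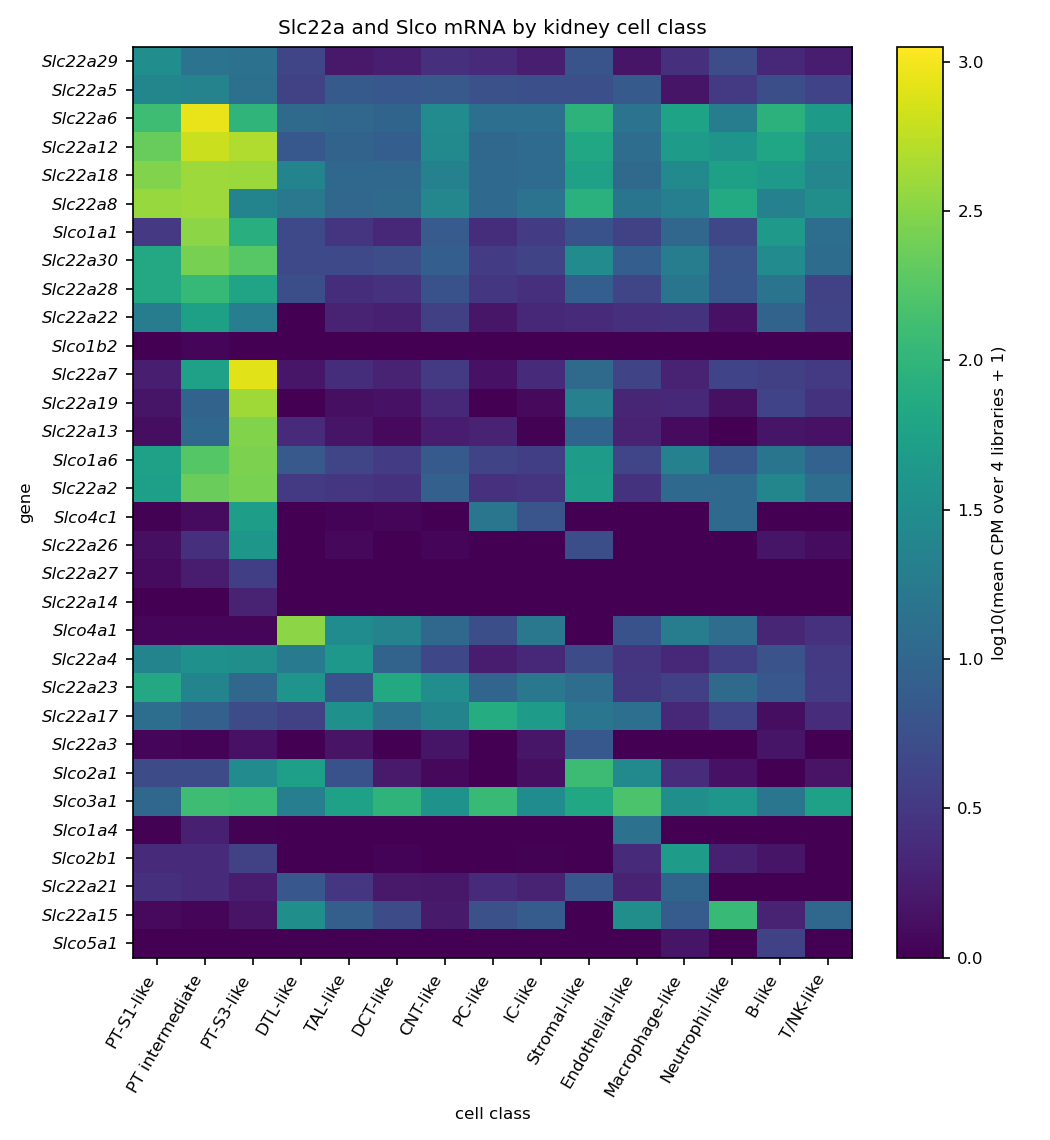
Mean level of 32 of the 33 members (rows) in 15 cell classes (columns) as log10 of CPM plus 1, averaged over the 4 libraries; rows are ordered by the class in which each gene is highest. Slc22a6 and Slc22a12 lead the intermediate column and Slc22a7 the PT-S3-like column, and Slco4a1 stands out in thin-limb-like cells.

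Outside the proximal tubule, reads of PT markers set a floor. The 8 PT markers were read at 16.1% to 32.3% of their PT level in stromal-like cells. In thick-ascending-limb-like (TAL-like) and principal-cell-like (PC-like) cells they were at 1.66% to 2.50%. Whether such reads came from free RNA, doublets or mixed clusters was not tested. Several members stood above that floor at sites of their own. Slco4a1, a thyroid hormone carrier, reached 392, 251, 260 and 415 CPM in descending-thin-limb-like (DTL-like) cells, of which there were only 11 to 38 per library, and 22.2 to 34.9 CPM in TAL-like cells, against at most 0.137 CPM in PT-like cells. Slc22a17, the lipocalin-2 receptor gene, stood at 65.7 to 93.0 CPM in PC-like and 39.5 to 49.9 CPM in intercalated-like cells. Slc22a15 gave 143, 141, 98.9 and 83.4 CPM in neutrophil-like cells and 27.5 to 38.8 CPM in endothelial-like cells. Slco3a1 was spread widely, at 144 to 175 CPM in endothelial-like, 88.9 to 129 CPM in PC-like and 70.2 to 127 CPM in distal-convoluted-tubule-like cells. Slco4c1 reached 8.48 to 18.0 CPM in PC-like cells. Slco1a4, a carrier of the blood-brain barrier endothelium, was read in endothelial-like cells at 6.92 to 16.9 CPM.

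Slco2b1 belonged to macrophage-like cells (42.5, 28.3, 65.3 and 47.7 CPM from 44, 12, 3 and 17 UMIs). The prostaglandin carrier Slco2a1 stood at 37.8 to 235 CPM in stromal-like cells and at 3.54 to 147 CPM in DTL-like cells, both from few cells. The ergothioneine carrier Slc22a4 measured 37.1 to 45.1 CPM in TAL-like cells, above its 30.5 to 35.6 CPM in intermediate cells. Slc22a23 was level between distal-convoluted-tubule-like cells (58.9 to 88.4 CPM) and PT-S1-like cells (58.7 to 81.8 CPM). Slc22a21 was low, at 1.21 to 1.58 CPM in PT-like cells and 1.57 to 2.49 CPM in TAL-like cells (5 to 9 UMIs per library), and its higher means in rarer classes rested on at most 7 UMIs. Slc22a3 and Slco5a1 had 83 and 24 UMIs in all barcodes, and the ranges of their highest and next classes overlapped.

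Sex was the comparison with replicates. Cells were called male from UMIs of Y-linked genes or female from Xist, counts were summed per library and call, and the 4 libraries served as blocks in edgeR's quasi-likelihood test with Benjamini-Hochberg adjustment over all genes. The labels do not say how many animals stand behind each library, and the 4 pairs come from different times. In PT-like cells 13 of 27 tested members were higher in male-called cells, where 24.1% of 12480 genes were, and 9 were higher in female-called cells, where 24.4% were. Male-higher members were Slco1a1, Slco1a4, Slc22a30, Slco3a1, Slc22a28, Slco1a6, Slco4c1, Slc22a6, Slc22a2, Slc22a22, Slc22a12, Slc22a7 and Slc22a18. Female-higher members were Slc22a29, Slc22a27, Slc22a8, Slc22a13, Slc22a19, Slc22a23, Slc22a17, Slco2a1 and Slc22a5.

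Cell position and sex were partly confounded in this set. In intermediate cells, the sum of the 9 PT-S3 markers was 6940 to 8019 CPM where cells were called male and 2759 to 3236 CPM where they were called female. In PT-S1-like cells the sum of the 6 PT-S1 markers was nearly level, at 4595 to 7060 and 4928 to 7084 CPM. In PT-S3-like cells the PT-S3 markers ranged over 8833 to 10375 CPM for male and over 8833 to 10747 CPM for female calls. Clusters differed in their share of female-called cells in every segment: the 2 PT-S3-like clusters were 93.2% and 2.14% female among sex-called cells, and PT-S1-like clusters ranged from 6.06% to 97.8%. The part of position in the sex differences of each segment was not tested, and values are given by segment. TMM scaling moved the median log2 male-to-female ratio of all genes by 0.14 in PT-like cells against plain CPM. TMM is edgeR's scaling by a trimmed mean of log ratios. Without it the all-gene split went from 3008 male-higher and 3049 female-higher to 1835 and 4916, and the members' split from 13 and 9 to 13 and 10.

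Slco1a1 had the largest male-higher ratio. Male-called intermediate cells held 581, 523, 451 and 208 CPM at 0, 1, 4 and 12 h and female-called ones 21.6, 8.29, 11.2 and 3.64 CPM, with no overlap. The log2 ratio was 6.08 ± 0.17 (SE from the edgeR test, 4 libraries) in PT-like cells (adjusted p = 3.51e-06, male higher in 4 of 4 libraries). It was 6.20 ± 0.28 in PT-S3-like cells (adjusted p = 7.80e-11). In PT-S1-like cells, where the gene was near 2 CPM, it was 0.72 ± 0.30 (adjusted p = 0.178).

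Slc22a30 and Slc22a28, the pair with the near-identical promoters printed above, were both male-higher in every segment. Slc22a30 read 438, 424, 333 and 278 CPM in male-called intermediate cells and 33.7, 20.5, 17.6 and 14.4 CPM in female-called ones. Its log2 ratio was 2.45 ± 0.10 in PT-S1-like cells, 4.30 ± 0.12 in intermediate cells and 2.67 ± 0.11 in PT-S3-like cells (adjusted p at most 7.23e-07). Slc22a28 read 163, 146, 149 and 100.3 CPM against 50.6, 36.0, 23.3 and 15.4 CPM in intermediate cells, with log2 ratios of 1.52 ± 0.11, 2.40 ± 0.18 and 3.41 ± 0.19 in the 3 segments. Of the 3′ end windows of Slc22a28, 27.6% also occur in Slc22a30 transcripts, but 0% of those of Slc22a30 occur in another gene. Reads from the shared stretch could come from either gene.

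Slc22a29, which lies between them, went the other way. It stood at 81.0, 71.0, 57.1 and 70.8 CPM in female-called intermediate cells and at 0.443 to 0.658 CPM in male-called ones. The log2 ratio was -2.51 ± 0.09 in PT-S1-like, -6.85 ± 0.12 in intermediate and -4.81 ± 0.37 in PT-S3-like cells (adjusted p at most 2.09e-07, female higher in 4 of 4 libraries each).

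OAT1 and OAT3 also parted. Slc22a6 measured 852, 929, 1203 and 1118 CPM in male-called and 602, 598, 638 and 734 CPM in female-called intermediate cells, a log2 ratio of 0.83 ± 0.08 (adjusted p = 0.000138). In PT-S1-like cells its ratio was -0.26 ± 0.17 (adjusted p = 0.385). Slc22a8 was female-higher in all 3 segments. It held 156, 218, 278 and 406 CPM in male-called and 878, 836, 867 and 1138 CPM in female-called intermediate cells, and 241 to 395 against 459 to 599 CPM in PT-S1-like cells. The log2 ratios were -0.74 ± 0.08 in PT-S1-like, -1.73 ± 0.17 in intermediate and -2.32 ± 0.31 in PT-S3-like cells (adjusted p at most 0.000507). The 2 neighbours had opposite sex differences in intermediate cells.

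For the remaining carriers in PT-like cells, URAT1's gene Slc22a12 gave a log2 ratio of 0.92 ± 0.07 and OCT2's gene Slc22a2 1.05 ± 0.08. Slc22a22 gave 0.92 ± 0.09 and Slco3a1 2.78 ± 0.13, and all of these were male-higher in 4 of 4 libraries. Male and female calls differ in their mix of segments, and its part in these pooled ratios was not tested. By segment, Slc22a12 was at 0.22 in PT-S1-like (adjusted p = 0.0701), 0.64 in intermediate and 0.53 in PT-S3-like cells. Slc22a2 was at -0.06 (adjusted p = 0.741), 0.77 and 0.57 in the same order. Slc22a22 was at 0.70, 0.40 and 2.98, and Slco3a1 at 3.22, 2.21 and 1.57. Slc22a13 and Slc22a19 were female-higher in PT-S3-like cells, at 423 against 220 CPM and 567 against 263 CPM on average (log2 -0.83 ± 0.10 and -0.99 ± 0.10, adjusted p = 5.94e-06 and 1.41e-06). In intermediate cells Slc22a13 and Slc22a19 were at log2 -1.64 and -0.80, also female-higher in 4 of 4 libraries. Slc22a27 stood at 2.43 to 4.71 CPM in female-called and 0 to 0.148 CPM in male-called intermediate cells. Weaker calls were those of Slc22a5 (-0.18 ± 0.06, adjusted p = 0.0452), lost in 8 alternatives (-0.20 to -0.14), and Slc22a7 (0.93 ± 0.25, adjusted p = 0.021, male higher in 3 of 4 libraries), lost without the 0 h library (0.75) or the 4 h library (0.70). Slco2a1 (-0.53 ± 0.13) was lost without the 0 h or the 1 h library (-0.54 to -0.51). With a mitochondrial limit of 25% Slco4c1 went from 1.45 ± 0.23 to 0.12. Slc22a26, Slc22a4, Slc22a21 and Slco2b1 did not pass in PT-like cells. In intermediate cells alone Slc22a26 was female-higher (-1.37 ± 0.35, adjusted p = 0.0149, 4 of 4 libraries) and Slco2b1 male-higher (0.86 ± 0.29, adjusted p = 0.0431, 4 of 4 libraries), at means of at most 3.28 CPM. Slc22a26 also passed in PT-like cells without the 0 h library (-0.98) and with the mitochondrial limit of 25% (-1.20).

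Within single segments, 5 of 20 tested members were male-higher and 4 female-higher in PT-S1-like cells, where 4.79% and 5.37% of genes were. Without the 0 h library they were 5 and 2, with 283 and 296 genes called in place of 538 and 603, and without the 1 h library 5 and 2, with 285 and 319 genes. In PT-S3-like cells 9 of 22 were male-higher and 8 female-higher, where 14.6% and 14.4% of genes were. In PT-S1/S2-like cells, the PT-S1-like and intermediate cells together, 12 of 26 were male-higher and 8 female-higher, against 24.1% and 24.9% of genes. Intermediate cells alone gave 12 and 10 of 25, against 23.1% and 23.4%. Without TMM, intermediate cells gave 10 and 11 members and 1653 and 4404 genes, and PT-S3-like cells 8 and 9 members and 652 and 1404 genes.

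**Figure D2:**
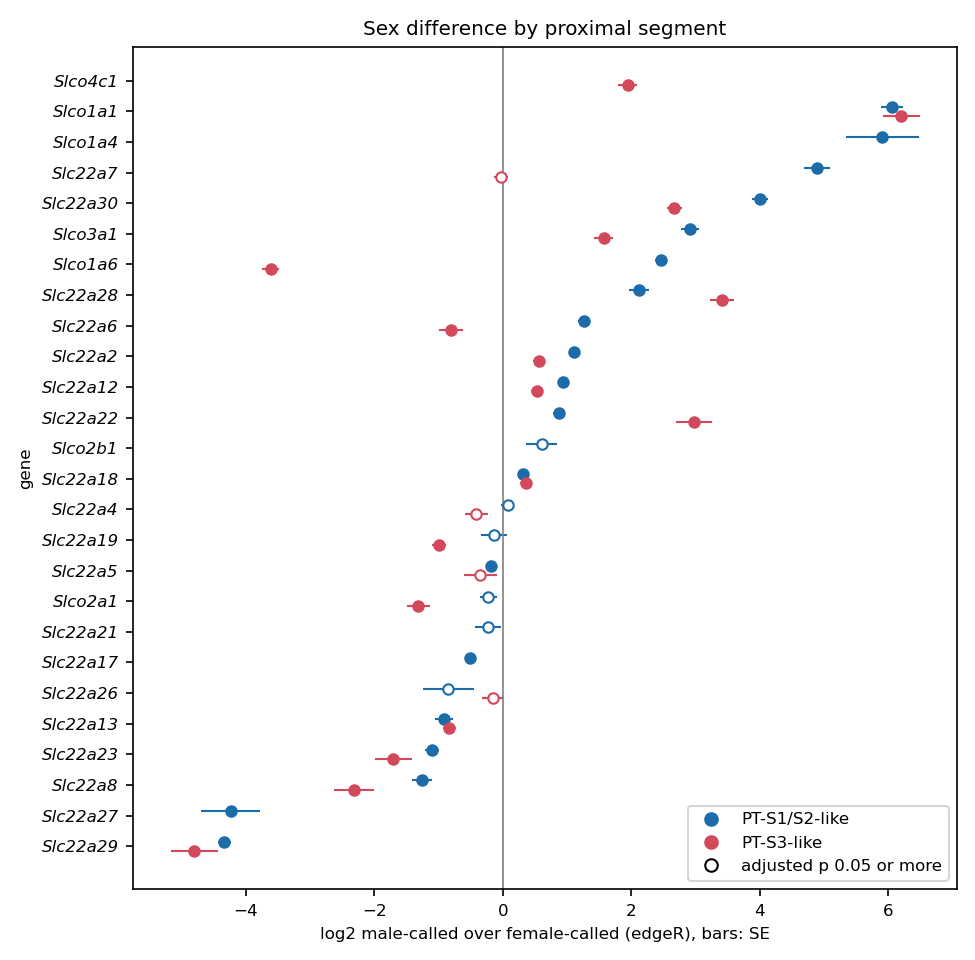
Log2 ratio of male-called to female-called cells (x axis, edgeR estimate with its standard error) for tested members (y axis) in PT-S1/S2-like cells (blue) and PT-S3-like cells (red); open points have an adjusted p of 0.05 or more. Slco1a6 lies at 2.46 in the first and -3.62 in the second, and Slc22a7 at 4.89 and -0.03.

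The sex difference itself depended on segment for 11 members by a test of the difference between PT-S3-like and PT-S1/S2-like cells, a test that 12.1% of 11711 genes passed. Slco1a6 reversed. In male-called cells it stood at 66.4 to 100.5 CPM in PT-S1-like and 183 to 233 CPM in intermediate cells, where female-called cells had 19.3 to 34.6 and 43.0 to 67.2 CPM. In PT-S3-like cells the order turned, with 39.7, 42.8, 58.0 and 38.0 CPM in male-called and 633, 605, 570 and 551 CPM in female-called cells. The log2 ratio was 1.76 ± 0.08 in PT-S1-like and -3.62 ± 0.13 in PT-S3-like cells, and the difference of PT-S3-like from PT-S1/S2-like cells was -6.02 ± 0.17 (adjusted p = 1.90e-21).

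Slc22a7 was male-higher in intermediate cells, at 91.3, 42.7, 103 and 45.1 CPM against 4.92, 2.17, 2.79 and 3.51 CPM. In PT-S3-like cells it stood at 768, 677, 1067 and 641 CPM in the male-called and 801, 1010, 874 and 752 CPM in the female-called cells, which overlapped, and the log2 ratio was -0.03 ± 0.11 (adjusted p = 0.883). The difference between segments was -4.78 ± 0.23 (adjusted p = 4.06e-16). Slc22a6 turned from 1.26 ± 0.09 in PT-S1/S2-like to -0.80 ± 0.19 in PT-S3-like cells (difference -2.14 ± 0.38, adjusted p = 0.000124). Its female-called PT-S3-like values were 16.1, 131, 164 and 252 CPM and the male-called ones 27.2, 62.6, 84.6 and 94.1 CPM, female higher in 3 of 4 libraries. Without the 12 h library the PT-S3-like ratio was -0.58 (adjusted p = 0.0722) and under DESeq2 -0.62 (adjusted p = 0.391). Because the male-called intermediate cells carry more of the PT-S3 markers, position and sex cannot be told apart for the PT-S1/S2-like side of these contrasts. The PT-S1/S2-like ratio of Slc22a6 also lay above those of its parts, -0.26 in PT-S1-like and 0.83 in intermediate cells, which differ in female share. On the PT-S3-like side the clusters were 93.2% and 2.14% female, so position and sex cannot be told apart there either.

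Time was compared as 1 library against another. A member is counted when its CPM differed by 2-fold or more between 2 libraries with at least 20 UMIs in the pair, and 95% intervals are exact binomial and cover counting error only. In PT-like cells no member was 2-fold higher than at 0 h at any time. At 1 h 3 of 29 members were 2-fold lower (Slc22a7, Slco1b2 and Slco4c1), where 0.908% of all genes were 2-fold higher, 1.51% lower and 2.42% either. At 4 h 3 of 30 were lower (Slco1b2, Slco2b1 and Slco4c1), where 3.22% of genes were higher, 2.6% lower and 5.82% either. At 12 h 5 of 28 were lower (Slc22a28, Slco1a1, Slco1a4, Slco2b1 and Slco4c1), where 2.72% of genes were higher, 2.57% lower and 5.29% either. The median log2 ratio of the members was -0.13, -0.08 and -0.10 at the 3 times and that of all genes 0.00, 0.04 and 0.02. All 3 comparisons share the 0 h library.

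Among members above 50 CPM in PT-like cells, Slco1a1 had the largest difference at 12 h. It read 316, 263, 212 and 91.8 CPM, a log2 ratio of -1.78 at 12 h (95% interval -1.82 to -1.75). In intermediate cells it was lower in both sexes, at -1.48 (-1.53 to -1.44) for male and -2.57 (-3.22 to -1.97) for female calls. All PT-S3-like cells together went from 80.7 CPM at 0 h to 38.1 CPM at 12 h (-1.08, -1.36 to -0.80), but their sex-called cells were 136 male and 61 female at 0 h and 44 and 58 at 12 h. Male-called PT-S3-like cells alone held 98.6, 183, 213 and 109 CPM. Without the stress-led clusters the 12 h ratio was -1.68.

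Slc22a30 and Slc22a28 were also lower at 12 h. In PT-like cells Slc22a30 read 265, 235, 175 and 136 CPM and Slc22a28 read 122, 103, 93.8 and 59.6 CPM, log2 ratios of -0.96 (-0.99 to -0.93) and -1.03 (-1.08 to -0.98) at 12 h. In female-called intermediate cells the 12 h ratios were -1.22 and -1.72, and in male-called ones -0.65 and -0.70. The 6 PT-S1 markers summed to 2484, 2256, 1857 and 1514 CPM in female-called intermediate cells at 0, 1, 4 and 12 h. In male-called ones they summed to 840 to 960 CPM. The part of this difference in the time ratios of intermediate cells was not tested. Slc22a28 was past 2-fold only narrowly and was at -0.97 without the stress-led clusters.

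Slc22a8 was higher at each later time, and its neighbour Slc22a6 differed less. In PT-like cells it read 282, 345, 372 and 494 CPM, a log2 ratio of 0.81 (0.78 to 0.83) at 12 h, and Slc22a6 read 557, 589, 687 and 641 CPM, a ratio of 0.20. By sex, the 12 h ratio of Slc22a8 in intermediate cells was 1.38 (1.34 to 1.43) for male calls, whose 0 h level was 156 CPM, and 0.37 (0.33 to 0.42) for female calls, whose 0 h level was 878 CPM. Whether these ratios differ between the sexes beyond the spread of libraries was not tested, since each rests on 1 library per time.

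The 12 male-higher and 9 female-higher members with enough UMIs in male-called intermediate cells were followed there. At 12 h, 11 of the 12 male-higher members stood below 0 h, with a median log2 ratio of -0.35, beside 67.3% and -0.11 for all male-higher genes. Of the 9 female-higher members 3 stood below 0 h, where 40.8% of all female-higher genes did, with medians of 0.44 and 0.08. At 4 h the male-higher members were evenly split, 6 below and 6 above, where 49.9% of all male-higher genes were below. At 1 h, 7 of the 9 female-higher members stood below 0 h (median -0.17), where 46.9% of all female-higher genes did. In female-called intermediate cells at 1 h, 11 of 12 male-higher members stood below 0 h (median -0.21), beside 55.0% and -0.02 for all male-higher genes. At 4 h 7 of 11 did (median -0.49), beside 43.7% and 0.05. At 12 h 8 of 11 did, with a median of -0.48, beside 46.4% and 0.03. All the libraries compared here also entered the sex test that set these lists. The PT-S1 markers of female-called intermediate cells were lower at later times, as given above, and their part in these counts was not tested.

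**Figure D3:**
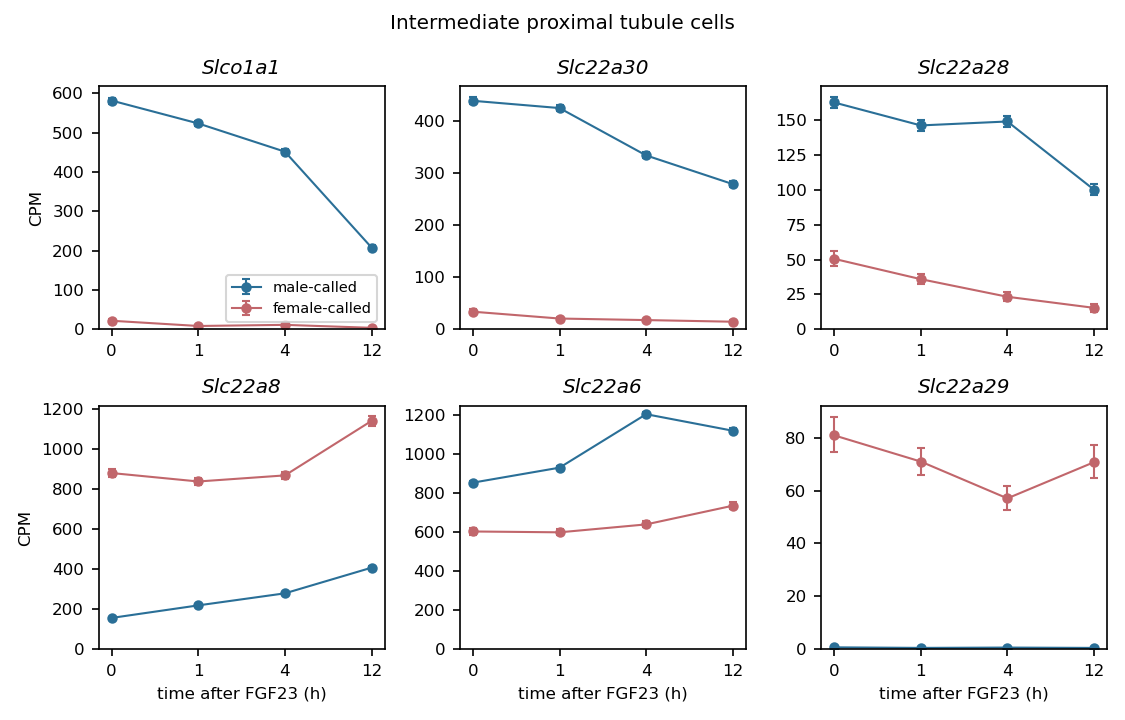
CPM in male-called (blue) and female-called (red) intermediate proximal cells at 0, 1, 4 and 12 h (evenly spaced on the x axis); bars are 95% counting intervals and each point is 1 library. Slco1a1, Slc22a30 and Slc22a28 are lowest at 12 h in both sexes, and male-called Slc22a8 is 156 CPM at 0 h and 406 CPM at 12 h.

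PT-S3-like cells, where Slc22a7 and Slco4c1 were highest among the proximal segments, numbered 313, 147, 283 and 229 at the 4 times. Slc22a7 had a 1 h log2 ratio of -1.05 in PT-like cells and 0.04 in PT-S3-like cells alone. It was nevertheless 2-fold lower in male-called intermediate cells at 1 h and 12 h (42.7 and 45.1 CPM) than at 0 h and 4 h (91.3 and 103 CPM). Slco4c1 was lower within PT-S3-like cells as well, with log2 ratios of -0.51 at 1 h, -1.08 at 4 h and -1.19 at 12 h. Male-called PT-S3-like cells gave 104, 81.6, 60.3 and 55.2 CPM and female-called ones 25.8, 23.4, 17.5 and 16.7 CPM.

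In PT-S3-like cells the genes of OAT1 and OAT3 were both higher at 12 h. Slc22a6 stood at 35.8, 80.2, 112 and 165 CPM and Slc22a8 at 9.29, 10.6, 22.8 and 48.5 CPM, log2 ratios of 2.20 (1.96 to 2.45) and 2.38 (1.92 to 2.88) at 12 h. Female-called cells reached 252 and 92.1 CPM at 12 h, whereas Slc22a8 in male-called cells stayed at 3.93 to 7.77 CPM. The 5 PT-S2 markers in female-called PT-S3-like cells summed to 2170, 2485, 3171 and 3197 CPM and in male-called ones to 3485 to 3641 CPM, and the 5 connecting-tubule markers in female-called cells to 42.9, 60.6, 46.9 and 411 CPM, while the 6 principal-cell markers there summed to 328, 288, 206 and 126 CPM. The part of these markers in the Slc22a6 and Slc22a8 values was not tested. Only 44 to 61 female-called and 44 to 136 male-called PT-S3-like cells stood behind each value.

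**Figure D4:**
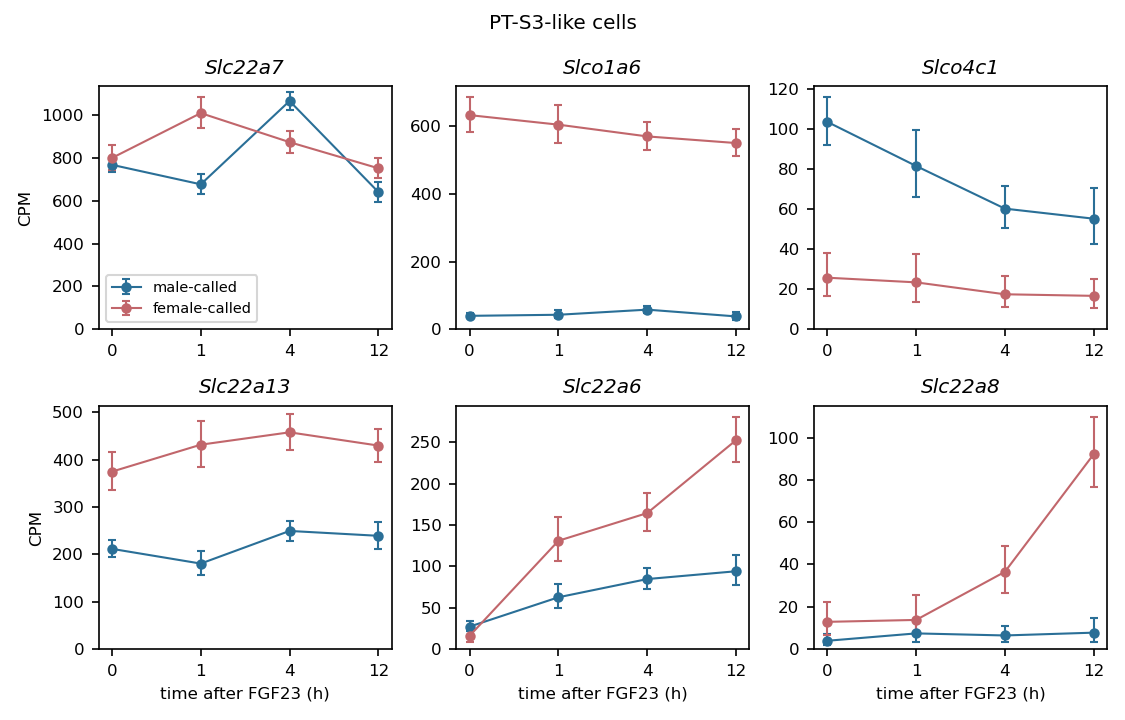
CPM in male-called (blue) and female-called (red) PT-S3-like cells at 0, 1, 4 and 12 h (evenly spaced); bars are 95% counting intervals and each point is 1 library. The sexes overlap for Slc22a7 and stand apart for Slco1a6 (551 to 633 against 38.0 to 58.0 CPM), and Slc22a6 and Slc22a8 are highest at 12 h in female-called cells.

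The other members past 2-fold were rare transcripts. In PT-like cells Slco1b2 had 18 UMIs at 0 h, 4 at 1 h and 4 at 4 h, and Slco1a4 had 62 at 0 h and 16 at 12 h. Slco2b1, highest in macrophage-like cells, had 191, 144, 63 and 84 UMIs at 0, 1, 4 and 12 h, while macrophage-like cells numbered 151, 51, 11 and 58 and the macrophage markers in PT-like cells summed to 7.85, 4.50, 6.37 and 4.82 CPM. Their part in the Slco2b1 values was not tested. Outside the proximal tubule, Slco4a1 read 12.8, 24.6, 27.5 and 23.3 CPM in distal-convoluted-tubule-like cells, a log2 ratio of 1.11 (0.62 to 1.63) at 4 h. The female share of those sex-called cells was 69.9%, 60.8%, 49.3% and 48.6% at the 4 times, and its part was not tested. In connecting-tubule-like cells Slco4a1 read 4.90, 3.73, 14.1 and 15.5 CPM from 7 to 40 UMIs. Slc22a8 read 51.8, 21.3, 10.9 and 15.1 CPM in those cells, where PT markers stood at 5.12% to 7.80% of their PT level, and the part of free proximal RNA in that difference was not tested.

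The partners of these carriers were read from 3 lists. Of the 16 efflux pumps and exchangers, 15 were tested by sex in PT-like cells, and 5 were male-higher and 7 female-higher, where 24.1% and 24.4% of all genes were. Abcc3 (log2 -5.82 ± 0.33), Abcb1b (-2.86 ± 0.20) and Abcc4 (-2.36 ± 0.11), which encode ATP-driven pumps, were female-higher, and Slc17a3, an apical anion and urate carrier, was male-higher (1.37 ± 0.11). At 12 h 4 of the 15 with enough UMIs were 2-fold higher than at 0 h (Abcc4, Abcb1a, Abcb1b and Slc17a4), where 2.72% of genes were, and none was lower. Of the 9 genes for driving gradients and scaffolds, 2 were male-higher and 2 female-higher, near the 24.1% and 24.4% of all genes. The monocarboxylate carriers Slc5a8 (1.53 ± 0.06) and Slc5a12 (-1.16 ± 0.14) stood opposite each other in PT-like cells of all segments pooled. Both helped to name the segments, Slc5a8 as a PT-S3 marker and Slc5a12 as a PT and PT-S1 marker. Slc16a9 and Slc13a3 of these lists were segment markers too. At 0 h, 829 of 3037 male-called and 825 of 1476 female-called PT-like cells were PT-S1-like. The part of this mix in the ratios of the 3 lists was not tested. Slc5a8 was the single gene of that list past 2-fold in time, from 212 CPM in the 0 h library to 87.0 CPM in the 12 h library.

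Of the 18 transcriptional and hormonal regulators, 4 were male-higher and 7 female-higher, beside the same 24.1% and 24.4%. The prolactin receptor gene Prlr (-5.46 ± 0.26, 226 CPM in female-called and 4.87 CPM in male-called cells) was female-higher, and the oestrogen receptor gene Esr1 (1.95 ± 0.11) and the growth hormone receptor gene Ghr (1.08 ± 0.08) were male-higher. Hnf4a (0.03 ± 0.05) did not pass. In time, the transcriptional repressor gene Bcl6 read 12.2, 31.2, 23.0 and 4.00 CPM, 2-fold higher than 0 h at 1 h and 2-fold lower at 12 h, while its sex ratio of 1.89 ± 0.67 did not pass (adjusted p = 0.0528). At 4 h Esr1 was 2-fold lower and Nfe2l2 2-fold higher.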

How the data were processed

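Single-cell 3′ RNA-seq was made from dissociated kidneys in 4 libraries, 1 per time point. The files hold unnormalized UMI counts for each gene in each barcode as deposited, which the authors made with Cell Ranger 3.1.0 against mm10, per the file headers and the submitters' processing notes (STAR and Seurat are also named there). The annotation and the use of strand are not given in the sources used here. Depth and cells per library are given above. Precision is limited by counting and, for time, by having 1 library each.

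Barcodes with at least 300 genes and at most 50% mitochondrial UMIs were kept, and the top-scoring barcodes by Scrublet (scanpy 1.11.5) were removed at an expected doublet rate of 0.8% per 1000 cells. Cells were clustered (Leiden, resolution 1.5, 30 components, 20 neighbours, 2025 genes without the members) into 39 clusters, of which 8 stayed unnamed. Cells with at least 1 UMI of Xist or of Y-linked genes, but not both, were called female or male. The others stayed uncalled and are left out of all values by sex. At 0 h, 3037 male and 1476 female calls came from 6605 PT-like cells. In PT-S3-like cells 136 male and 61 female calls came from 313 cells at 0 h, and 44 and 58 from 229 at 12 h. Counts were summed per library, class and sex call and tested with edgeR 4.0.16 (quasi-likelihood, TMM, library as block, Benjamini-Hochberg adjustment over all genes tested, threshold 0.05). The block is the library itself, since both sexes of a sum pair come from the same library, per the labels. Each ± value is a standard error taken from the log2 ratio and the F statistic of the edgeR test. DESeq2 1.42.0 was an alternative. The labels do not show separate animals, so p-values rest on these 4 libraries and do not measure the spread between animals. The edgeR fit also draws each gene's variance towards that of all genes tested. Its p-values and standard errors are therefore not the spread of 1 gene over 4 libraries alone. On simulated counts for sex in PT-like cells (12480 genes), 90% of 2-fold and 99% of 4-fold changes were called, and 0.130% of unchanged genes. The simulation changed 100 genes by 2-fold and 100 by 4-fold, evenly in both directions, and held no differences between times. In the data 24.1% of genes were called male-higher and 24.4% female-higher. The share of false calls, and the scaling, under that much change were not tested. Time ratios needed at least 20 UMIs in the pair, and their 95% intervals cover counting error only.

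Named members were those at 50 CPM or more in a proximal segment, past 2-fold in time or past the sex threshold; all others are given by class or count, and the values of 1 member and of some other genes are not reported here. The members and lists were chosen with earlier results of these data known.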

Additional observations from a re-analysis of the deposited data

Results flagged for a closer look

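The sex difference depended on the proximal segment for 11 members, by edgeR's test of the log2 male-to-female ratio in PT-S3-like cells minus that in PT-S1/S2-like cells. The largest values were -6.02 for Slco1a6 (adjusted p = 1.90e-21) and -4.78 for Slc22a7 (adjusted p = 4.06e-16), described above. Slc22a6 gave -2.14. Against PT-S1/S2-like cells, male excess was smaller in PT-S3-like cells for Slco3a1 (-1.30), Slc22a30 (-1.27) and Slc22a2 (-0.48). It was greater for Slc22a22 (2.08) and Slc22a28 (1.34). The PT-S1/S2-like ratio of Slc22a22, 0.87, lay above those of its parts, 0.70 in PT-S1-like and 0.40 in intermediate cells. The PT-S1/S2-like ratio of Slc22a2, 1.11, lay above those of its parts, -0.06 in PT-S1-like and 0.77 in intermediate cells. Its PT-S3-like ratio was 0.57. These parts differ in their female share, and what that adds to the contrasts was not tested. Female excess was greater in PT-S3-like than in PT-S1/S2-like cells for Slc22a8 (-1.21, adjusted p = 0.0490), Slco2a1 (-0.98) and Slc22a19 (-0.80). For Slc22a19 the PT-S1/S2-like ratio was -0.14. Intermediate cells alone gave -0.80 ± 0.17 (edgeR adjusted p = 0.00711), beside -0.99 in PT-S3-like cells, so its female excess was not particular to PT-S3-like cells. Intermediate cells of the 2 sexes also differ in segment markers. In PT-S3-like cells the PT-S3 markers were near level, but the 8 PT markers summed to 5851 to 6838 CPM for male and 7694 to 9203 CPM for female calls. The 5 PT-S2 markers there summed to 3485 to 3641 and 2170 to 3197 CPM. Sex and position therefore cannot be told apart on either side of the contrast.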

How the results depend on the processing

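The count of members past 2-fold in PT-like cells at 1 h (3) was 0 in female-called cells alone, 4 in male-called cells alone, 1 in PT-S3-like cells alone (Slc22a6, higher), 1 without the stress-led clusters (Slco4c1) and 5 with no UMI minimum. At 4 h (3) it was 5 with a mitochondrial limit of 25% and 5 with no UMI minimum. At 12 h (5) it was 3 without the stress-led clusters (Slco1a1, Slco1a4 and Slco4c1) and 7 in PT-S3-like cells alone (3 higher and 4 lower). Slc22a7 at 1 h and Slco2b1 at 12 h changed sign in PT-S3-like cells alone, to 0.040 and 0.13. The cause was not tested. Leaving out each library gave 20 to 22 sex-dependent members in PT-like, 18 to 20 in PT-S1/S2-like, 16 to 17 in PT-S3-like, 7 to 12 in PT-S1-like and 20 to 22 in intermediate cells. In PT-like cells, no replicate block gave 13 male-higher and 8 female-higher members, and all-gene calls went from 3008 and 3049 to 2046 and 1969. No paired analysis was possible for time because each time point is 1 library. Slc22a7's sex call in PT-like cells was lost without the 0 h library, without the 4 h library and at 25% mitochondrial UMIs. Slc22a6's in PT-S3-like cells was lost without the 12 h library and under DESeq2. The settings for scaling without TMM, for single segments and without stress-led clusters were chosen after seeing the data.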
